A study of Mus musculus with 2 samples.

Results

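The genes described here are the annotated histone genes and histone variant genes of mouse C2C12 cells, chosen by name. They are every annotated gene with at least 1 read whose symbol begins with Hist1h to Hist4h, H2af, H3f3 or H1f, leaving out names that hold -ps. The rule found 52 of the 14198 annotated genes with reads. Of these, 41 carry Hist names and are called replication-dependent below, and 11 carry H2af, H3f3 or H1f names and are called variant genes. Of the 52, 2 are annotated as pseudogenes, Hist1h2aj and H3f3c.

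C2C12 is a myoblast line that the labels trace to injured thigh muscle of C3H mice, without giving its differentiation state. Total RNA was read by long-read sequencing in 2 libraries, biological replicates 2 and 1 of a single group for which the labels name no treatment, so the series holds no condition to compare, and p-values measure only the difference between these libraries. The libraries held 735077 and 791850 reads, of which 98.3% and 97.7% lay on annotated genes (replicates 2 and 1). All 4 muscle lineage markers checked (Myod1, Myog, Des and Cdh15) had reads in both libraries. The 12 markers of blood, endothelial, neural, epithelial and testis cells had 0 to 2 reads in each library. Myog had 454 and 438 reads and Myod1 had 127 and 119 (replicates 2 and 1), and the differentiation state was not tested. Of the 4 muscle markers 1 differed between libraries, Des, with 1187 reads in replicate 2 and 881 in replicate 1 (log2 ratio 0.53, adjusted p 5.84e-14 by the exact binomial test described below). Each read counts as 1 cDNA molecule whatever its length, so levels are given as reads and as CPM, counts scaled to the annotated-gene reads of the library, not divided by gene length. Whether cDNA synthesis was primed on poly(A) is not given in the sources used here.

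Replication-dependent histone genes supply the bulk of nucleosome protein while DNA is copied. They lie in clusters, as a rule have no introns, and their mRNAs end not in a poly(A) tail but just after a conserved stem-loop that the protein SLBP binds. Variant histones such as H3.3, H2A.Z and macroH2A are made throughout the cell cycle, in most cases from spliced, polyadenylated mRNAs, and replace the standard histones at particular places in chromatin.

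Variant genes held most of the histone reads, and the large replication-dependent family was mostly read at low levels and was led by a pair of H2A genes. Replication-dependent genes summed to 967.9 ± 83.1 CPM (SD, n = 2) and variant genes to 5693.9 ± 71.8 CPM. In reads, the replication-dependent sum was 657 in replicate 2 and 794 in replicate 1, and the variant sum was 4078 in replicate 2 and 4443 in replicate 1. Replication-dependent genes thus took 13.9% of histone reads in replicate 2 (exact 95% binomial interval 12.9 to 14.9%) and 15.2% in replicate 1 (14.2 to 16.2%). All histone genes together took 0.655% and 0.677% of annotated-gene reads in replicates 2 and 1. Intervals and floors throughout cover counting error only.

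The replication-dependent family was also read patchily. Of 69 such genes in the GENCODE M21 annotation, 41 had reads and 28 had none in either library. With 0 reads, a level of up to 4.15 CPM (replicate 2) or 3.88 CPM (replicate 1) is allowed, the worth of 3 counts. Reads in both libraries were found for 22 of the 41 genes (53.7%), against 11719 of all 14198 genes with reads (82.5%), while 9 were read only in replicate 2 and 10 only in replicate 1. A single read in all was the whole evidence for 14 genes, 2 to 4 reads for 13, 5 to 9 reads for 6, 10 to 99 reads for 6 and over 100 reads for 2. The median replication-dependent gene had 2 reads over both libraries, the median variant gene 189 and the median annotated gene 20. All 11 variant genes with reads were read in both libraries, while 7 of 18 annotated variant genes had no read.

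By protein family, the replication-dependent reads were mostly H2A. The 13 replication-dependent H2A genes had 557 reads in replicate 2 and 679 in replicate 1. The 9 H2B genes had 45 and 52 reads, the 3 linker histone H1 genes 34 and 45, the 8 H4 genes 15 and 11, and the 8 H3 genes 6 and 7 (replicates 2 and 1). The 4 core histones are needed in equal amounts in the nucleosome, and their replication-dependent mRNAs were read at very unequal levels here. Of the H2A reads, 511 in replicate 2 and 638 in replicate 1 lay on 2 genes, Hist1h2ao and Hist1h2ap. With the priming not given, how far reads follow the true levels of mRNAs without a poly(A) tail is unknown. Among variant genes the order was different, with 2342 and 2551 reads for the 3 H3 genes, 1506 and 1678 for the 6 H2A genes and 230 and 214 for the 2 H1 genes (replicates 2 and 1). By cluster, the 32 Hist1 genes with reads, on chromosome 13 between 21716422 and 23751598 (mm10), had 622 and 763 reads. The 7 Hist2 genes on chromosome 3 had 15 and 16 reads, the 1 Hist3 gene on chromosome 11 had 20 and 14, and the 1 Hist4 gene on chromosome 6 had 0 and 1 (replicates 2 and 1).

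**Figure D1:**
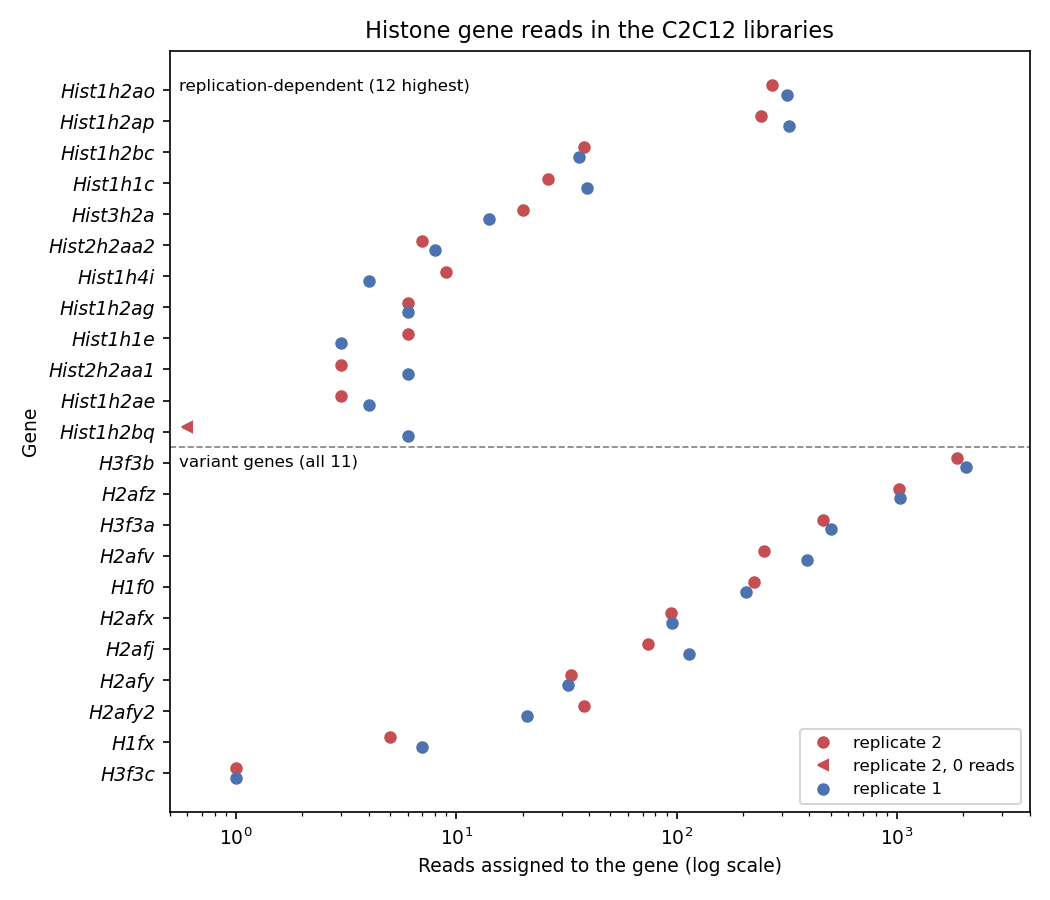
Reads assigned to the 12 replication-dependent genes with the highest mean level (above the dashed line) and to all 11 variant genes (below it), on a log axis, with 1 point for each library; the triangle marks 0 reads. Hist1h2ao and Hist1h2ap lie between 240 and 322 reads, and no other replication-dependent gene passes 39.

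The leading pair was Hist1h2ao and Hist1h2ap, which encode standard H2A. Hist1h2ao (chromosome 13, 21810465 to 21810944, plus strand) had 271 reads in replicate 2 and 316 in replicate 1. Hist1h2ap (chromosome 13, 21833026 to 21833507, minus strand) had 240 reads in replicate 2 and 322 in replicate 1. Together they held 77.8% of replication-dependent reads in replicate 2 (exact interval 74.4 to 80.9%) and 80.4% in replicate 1 (77.4 to 83.1%). Without them the replication-dependent sum was 202.0 CPM in replicate 2 and 201.7 CPM in replicate 1, and its share of histone reads averaged 3.42%. This alternative was chosen after their counts were seen. Their coding sequences are identical over 393 bases, so how the authors' assignment split reads between both copies is uncertain, and their sum is surer than either value.

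Their annotated transcripts share a feature that no other replication-dependent transcript with the stem-loop motif has. Between the coding end and the stem-loop both carry a run of 12 A bases, which ends directly at the motif. The sequences below show the 30 bases up to the last base of the motif, 5′ to 3′, from the GENCODE M21 transcripts, with the stem-loop motif in capitals. Hist1h2ag, another H2A gene, is shown for contrast because 390 of its 393 coding bases (99.2%) match Hist1h2ao.
Hist1h2ao: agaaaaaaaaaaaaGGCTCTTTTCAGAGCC
Hist1h2ap: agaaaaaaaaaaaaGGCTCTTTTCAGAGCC
Hist1h2ag: tgatcgccaacaaaGGCTCTTTTCAGAGCC
Hist1h1c: ctaacaatccaaaaGGCTCTTTTCAGAGCC
Hist3h2a: ttacagacaccaaaGGCTCTTTTCAGAGCC
Hist1h4i: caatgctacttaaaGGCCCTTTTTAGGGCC
On mm10 these windows are chr13:21810884-21810913 (plus strand) for Hist1h2ao, chr13:21833029-21833058 (minus strand) for Hist1h2ap, chr13:22042483-22042512 (minus strand) for Hist1h2ag, chr13:23739498-23739527 (plus strand) for Hist1h1c, chr11:58955158-58955187 (plus strand) for Hist3h2a and chr13:22040966-22040995 (minus strand) for Hist1h4i.

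Hist1h2ag had 6 reads in replicate 2 and 6 in replicate 1, against the 240 to 322 reads of the genes with the A run. The motif searched on the transcript strand was GGNNCTTTTNAGNGCC. It was found in 42 of the 67 replication-dependent coding genes, starting 22 to 59 bases past the coding end, and in 0.0850% of all protein-coding transcripts. Where it was not found, the annotated transcript often ends before it could be reached, since 13 of the 67 genes have no annotated base past the coding end. Of the 42 genes with the motif, 2 have 10 or more A bases in a row before it, namely this pair, and the longest such run in the others is 8. Longer runs past the motif stand in Hist1h2ac (15 A bases), which had 1 read in replicate 2 and 0 in replicate 1, and in Hist1h2be (11 A bases), which had 0 in both. The other Hist1 and Hist2 H2A genes whose coding sequence has the same length had 0 to 8 reads in either library. Hist3h2a, an H2A gene not among those compared, had 20 reads in replicate 2 and 14 in replicate 1. Hist1h2ao and Hist1h2ap have identical coding sequences, so they are not 2 independent cases. The part of the A run in these read counts was not tested.

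**Figure D2:**
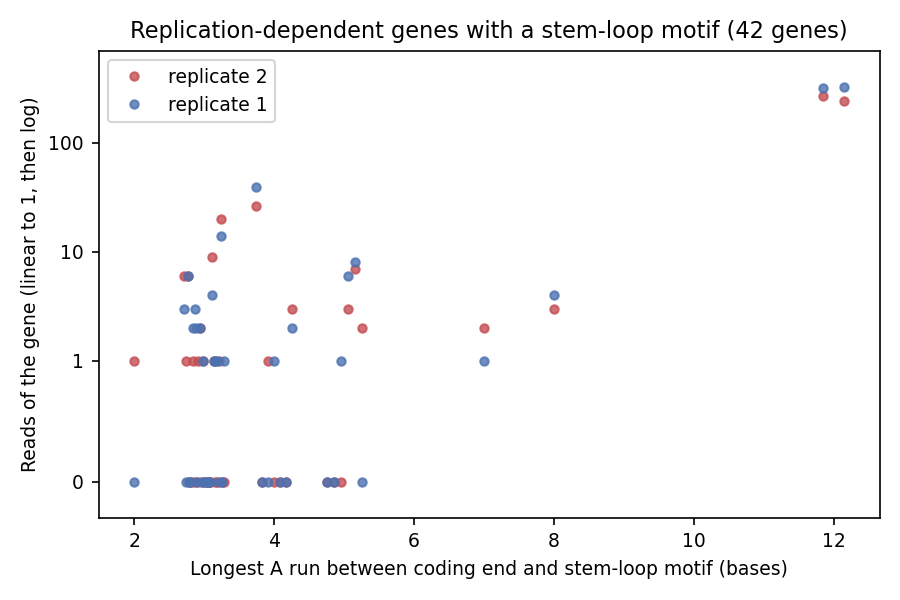
Reads of each of the 42 replication-dependent genes with a stem-loop motif (vertical axis, linear to 1 read and log above) against the longest run of A bases between coding end and motif (horizontal axis, points spread sideways within a value), for both libraries. The 2 genes with runs of 12 A bases had 240 to 322 reads in a library, and genes with runs of 2 to 8 had 0 to 39.

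Outside this pair, most replication-dependent reads fell on models that end well past the coding end. Reads on models ending over 150 bases past the coding end made up 106 of 657 replication-dependent reads in replicate 2 (16.1%, exact interval 13.4 to 19.2%) and 113 of 794 in replicate 1 (14.2%, 11.9 to 16.9%). Outside Hist1h2ao and Hist1h2ap they made up 72.6% and 72.4% (replicates 2 and 1). Of these reads, 67 in replicate 2 and 73 in replicate 1 lay on models that hold the stem-loop motif, and 38 and 35 lay on a spliced model of Hist1h2bc that has no motif. The end of an annotated model is the annotation's end, and the files do not give the end of each read.

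Hist1h1c, which encodes a linker histone, had 26 reads in replicate 2 and 39 in replicate 1, all on a single-exon model that ends 880 bases past the coding end and holds a poly(A) signal in its last 50 bases. The signal was searched as AATAAA or ATTAAA on the transcript strand and was found there in 17 of the 67 replication-dependent coding genes and in 50.2% of all protein-coding transcripts. Hist3h2a, an H2A gene outside the large cluster, had 20 reads in replicate 2 and 14 in replicate 1 on a model that ends 1700 bases past the coding end. Hist1h4i, an H4 gene, had 9 and 4 reads on a model that ends 376 bases past it, and Hist1h1e, another linker histone gene, had 6 and 3 reads on a model that ends 1209 bases past it (replicates 2 and 1). All of these transcripts contain the stem-loop motif upstream of their end. Of the 20 replication-dependent genes whose single-exon transcripts hold the motif and reach over 150 bases past the coding end, 14 had reads, 67 in replicate 2 and 73 in replicate 1. Of the 19 with the motif that end within 150 bases and lack the A run, 13 had reads, 30 in replicate 2 and 30 in replicate 1. The median gene had 1 read over both libraries among the 20 and 2 reads among the 19. Most reads of the longer group lay on Hist1h1c and Hist3h2a.

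The variant gene H2afx belongs beside them. It encodes the H2A variant that is phosphorylated around DNA breaks, and its mRNA is known in a stem-loop form and in a longer polyadenylated form. Its transcript holds the motif 47 bases past the coding end and runs on to 884 bases past it, with a poly(A) signal near the end.
H2afx: cacacctccacaaaGGCCCTTTTAAGGGCC
This window is chr9:44335226-44335255 (mm10, plus strand). H2afx had 94 reads in replicate 2 and 95 in replicate 1, of which 93 and 95 lay on this single-exon model.

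The rest of the 12 highest replication-dependent genes were read fewer than 10 times in a library. Hist2h2aa2 had 7 reads in replicate 2 and 8 in replicate 1, and Hist2h2aa1, whose coding sequence is identical, had 3 and 6. Hist1h2ae had 3 reads in replicate 2 and 4 in replicate 1. Hist1h2bq had 0 reads in replicate 2 and 6 in replicate 1, while Hist1h2br, with the same coding sequence, had 2 and 0. Levels in these copies are uncertain, because reads cannot be told apart by their coding part.

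Spliced replication-dependent RNA came almost wholly from 1 gene. Reads on models of 2 or more exons made up 39 of 657 replication-dependent reads in replicate 2 (5.94%, exact interval 4.25 to 8.03%) and 40 of 794 in replicate 1 (5.04%, 3.62 to 6.80%). In variant genes the same share was 89.0% in replicate 2 and 88.5% in replicate 1, and over all protein-coding genes 94.4% and 91.3%. Hist1h2bc, an H2B gene (chromosome 13, 23684199 to 23692908), had 38 reads in replicate 2 and 36 in replicate 1. Its annotated model of 2 exons, Hist1h2bc-201, held 38 and 35 of them; this model ends 742 bases past the coding end and has no stem-loop motif. The remaining read, in replicate 1, lay on an unannotated model of 2 exons. Without Hist1h2bc the spliced share averaged 0.345%. The other spliced models, of Hist1h2bq, Hist1h2br and Hist1h2bf, had 1 read each. Of these, 2 unannotated models assigned to Hist1h2bq in replicate 1, on the minus strand, had no exon within that gene, and their first bases stood at the annotated borders of Hist1h2ao (21810944) and of Hist1h2ap (21833507).

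Unannotated structures took a smaller share of reads in histone genes summed together than over all protein-coding genes, though not in H2afy. There 33.3% of reads in replicate 2 and 18.8% in replicate 1 were classed as annotated. The authors class each model as annotated (Known), as an incomplete match to an annotated splice pattern (ISM), as a new combination of annotated splice sites (NIC), as holding a new splice site (NNC) or as Genomic. Replication-dependent genes had 0 of 657 reads outside the annotated class in replicate 2, which with an exact interval allows up to 0.560%, and 5 of 794 (0.630%) in replicate 1. Variant genes had 5.27% in replicate 2 and 6.26% in replicate 1, and all protein-coding genes 20.1% and 23.7%. The classes ISM, NIC and NNC describe splice patterns, and replication-dependent reads lay mostly on single-exon models. The part of gene structure in their low share was not tested. H1f0, a variant gene read on a single-exon model, also had 100% of its reads in the annotated class in both libraries. Of 66 unannotated spliced models in variant genes, 27 were found in both libraries with the same introns and 37 rested on a single read. New splice sites in variant genes lay close to annotated ones: 71 of 84 NNC reads in replicate 2 and 64 of 71 in replicate 1 used sites within 5 bases of an annotated site.

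**Figure D3:**
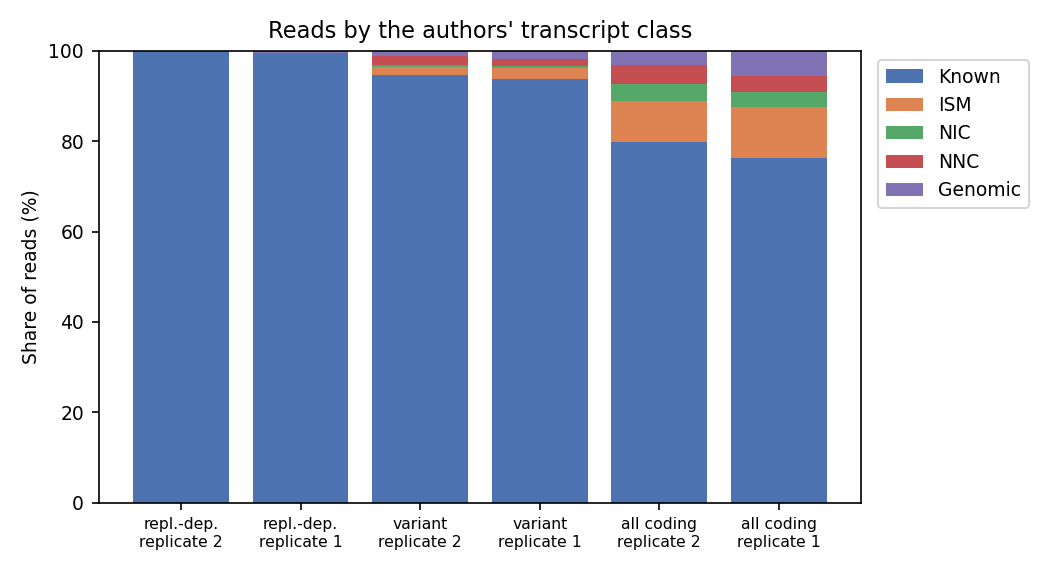
Share of reads (%) in each of the authors' transcript classes, for replication-dependent genes, variant genes and all protein-coding genes, with 1 bar for each library. Annotated (Known) models hold 100% and 99.4% of replication-dependent reads, 94.7% and 93.7% of variant reads and 79.9% and 76.3% of all protein-coding reads in replicates 2 and 1.

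Among the variant genes, those of the replacement histone H3.3 led. H3f3b (chromosome 11, 116021912 to 116027962) had 1880 reads in replicate 2 and 2048 in replicate 1, or 2625 ± 32.9 CPM (SD, n = 2), and ranked 24 among all annotated genes. H3f3a (chromosome 1, 180800832 to 180813943), which encodes the same protein as H3f3b, had 461 and 502 reads, or 643.5 ± 7.88 CPM. H3f3b alone made up 46.1% of variant reads in replicate 2 and 46.1% in replicate 1. H3f3c, annotated as a processed pseudogene, had 1 read in each library, in replicate 1 on a model classed Genomic.

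The H2A.Z genes came next. H2afz (chromosome 3, 137864487 to 137866922) had 1017 reads in replicate 2 and 1027 in replicate 1, or 1368 ± 56.2 CPM. H2afv (chromosome 11, 6427229 to 6444443), which encodes the second H2A.Z protein, had 250 reads in replicate 2 and 389 in replicate 1, or 424.5 ± 111 CPM. H1f0, the linker histone of slowly dividing and differentiated cells, had 225 reads in replicate 2 and 207 in replicate 1 (289.5 ± 30.9 CPM). The libraries did not overlap between H3f3b, H2afz, H3f3a, H2afv and H1f0, which stood in that order in both.

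The lower variant genes were H2afx with 126.5 ± 5.12 CPM and H2afj with 124.9 ± 31.8 CPM, whose levels overlapped. H2afj, an H2A variant, had 74 reads in replicate 2 and 114 in replicate 1. The macroH2A genes followed, histones with a large additional domain outside the nucleosome. H2afy (chromosome 13, 56073619 to 56136361) had 33 reads in replicate 2 and 32 in replicate 1, and H2afy2 (chromosome 10, 61738665 to 61784147) had 38 and 21, and these levels overlapped too. H1fx, a linker histone variant, had 5 reads in replicate 2 and 7 in replicate 1.

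Between the libraries, 1 of the 18 histone genes with enough reads to test (at least 10) differed. H2afv had 250 reads in replicate 2 and 389 in replicate 1, a log2 ratio of replicate 2 over replicate 1 of -0.54 (adjusted p 0.000263 by a two-sided exact binomial test, Benjamini-Hochberg over 8940 genes). Over all annotated genes tested, 3.98% were called, 1.39% higher in replicate 2 and 2.6% higher in replicate 1, so 1 of 18 is near the background. Of the 8 replication-dependent genes tested 0 were called and 1 (Hist1h2ap) had an unadjusted p under 0.05 by the same exact test, as did 1246 of the 8940 genes tested (13.9%). Hist1h2ap stood at a log2 ratio of -0.33 (adjusted p 0.131 by the exact binomial test), and was called under 2 of the alternatives. H2afj and H2afy2, at log2 ratios of -0.52 and 0.94, missed the threshold (adjusted p 0.187 and 0.206 by the exact test). The median log2 ratio was 0.01 over the tested replication-dependent genes, 0.03 over the tested variant genes and 0.06 over all genes tested.

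Most variant genes used 1 dominant transcript. H3f3b-201, of 4 exons, took 92.8% of H3f3b reads in replicate 2 and 91.7% in replicate 1. The annotated non-coding transcript H3f3b-203 took 41 and 57 reads, and single-exon models across the introns of H3f3b-201 took 37 and 48 (replicates 2 and 1). H2afz-201 took 95.7% and 94.8% of H2afz reads, and H3f3a-205 took 95.7% and 94.2% of H3f3a reads. In H2afz, an unannotated model of 5 exons that differs from H2afz-201 inside the gene by a splice site 3 bases upstream was found in both libraries, with 23 reads in replicate 2 and 21 in replicate 1. H1f0 and H1fx, whose genes have no introns, had all reads on a single annotated model.

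H2afv showed exon skipping. Its transcript H2afv-201 leaves out an internal coding exon of 114 bases (chromosome 11, 6433724 to 6433837) that H2afv-202 keeps. The exon is printed whole, in lower case, on the coding strand.
H2afv exon: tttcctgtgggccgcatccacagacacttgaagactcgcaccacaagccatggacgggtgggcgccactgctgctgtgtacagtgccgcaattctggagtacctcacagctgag
Reads that skip it made up 25 of 242 informative reads in replicate 2 (10.3%, exact interval 6.80 to 14.9%) and 52 of 366 in replicate 1 (14.2%, 10.8 to 18.2%), and the libraries gave p 0.172 in Fisher's exact test (two-sided). A variant of the same exon with its downstream splice site 4 bases further on had 21 reads in replicate 2 and 12 in replicate 1.

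H2afy, which encodes macroH2A1, had reads spread over many structures. Its transcripts choose between a pair of exons that are never joined in annotated models, and the choice gives the macroH2A1.2 or the macroH2A1.1 protein. The exon of macroH2A1.1 builds the pocket that binds ADP-ribose, and its use is known to increase as myoblasts differentiate. Both exons are printed whole, in lower case, on the coding strand (mm10 chromosome 13, minus strand); the macroH2A1.2 exon has 100 bases (56089758 to 56089857) and the macroH2A1.1 exon has 91 bases (56088252 to 56088342).
macroH2A1.2 exon: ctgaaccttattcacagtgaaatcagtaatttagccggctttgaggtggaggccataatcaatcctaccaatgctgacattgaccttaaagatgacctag
macroH2A1.1 exon: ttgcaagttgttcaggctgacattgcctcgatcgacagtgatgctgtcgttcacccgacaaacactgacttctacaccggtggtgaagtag

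Both exons were in use. The macroH2A1.2 exon was found in 10 and the macroH2A1.1 exon in 19 of 29 informative reads in replicate 2, and in 9 and 10 of 19 in replicate 1. The macroH2A1.2 share was 34.5% in replicate 2 (exact interval 17.9 to 54.3%) and 47.4% in replicate 1 (24.5 to 71.1%), a difference not detectable at this depth (p 0.547, two-sided Fisher's exact test). Over both libraries it was 19 of 48 reads (39.6%, 25.8 to 54.7%). A single read of replicate 1 joined both exons, on an unannotated model.

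The exon just before the pair was used in a form 3 bases shorter in most reads. Its acceptor lies at 56096234 in H2afy-201 and H2afy-202 and at 56096231 in the shorter form, which GENCODE M21 lists only in the non-coding transcript H2afy-204. The first 30 bases of the longer form, at chr13:56096205-56096234 (minus strand), are given with the 3 bases that the shorter form leaves out in capitals.
H2afy exon start: AAGaagcagggagaagtgagcaaggcggcc
The shorter form, of 108 bases, had 17 of 27 reads in replicate 2 (63.0%, exact interval 42.4 to 80.6%) and 15 of 19 in replicate 1 (78.9%, 54.4 to 93.9%), and the longer one, of 111 bases, had the other 10 and 4. The shorter form stood beside both exons of the pair, with 12 and 7 macroH2A1.1 reads and 5 and 7 macroH2A1.2 reads (replicates 2 and 1). Because no annotated coding transcript combines it with either exon, 45.5% of H2afy reads in replicate 2 and 40.6% in replicate 1 were classed NIC. A further 12.1% and 37.5% were classed ISM, and 33.3% and 18.8% as annotated (replicates 2 and 1). In replicate 1, 9 of the 12 ISM reads lay on a single-exon model at the 3′ end of the gene. In H2afz, H3f3a and H3f3b the annotated share was 94.5 to 96.3%. It was 84.4% in replicate 2 and 85.4% in replicate 1 for H2afv, and 94.7% and 76.2% for H2afy2.

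**Figure D4:**
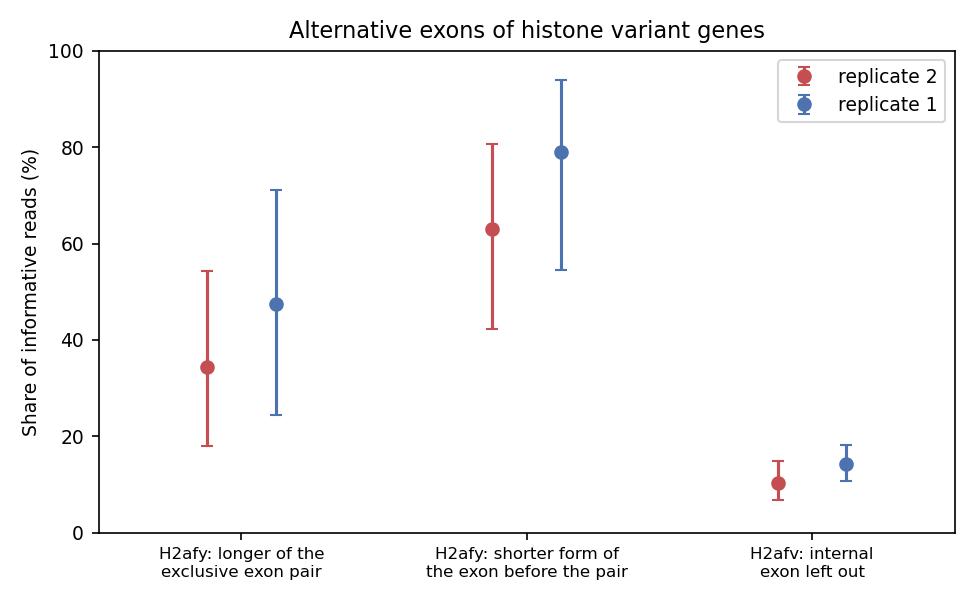
Share of informative reads (%) with the macroH2A1.2 exon and with the 3-base shorter preceding exon in H2afy, and with the internal exon left out in H2afv; points are libraries and bars are exact 95% binomial intervals. The intervals of both libraries overlap for each of the 3 choices.

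Of 12 histone genes with at least 20 reads on complete models in each library, 0 differed in the use of their main transcript, and 0 had an unadjusted p under 0.05 (two-sided Fisher's exact test, Benjamini-Hochberg over 4262 genes, of which 0.0704% were called). Complete models here are those classed as annotated, NIC or NNC. Hist1h1c, H2afx, Hist1h2ao, Hist1h2ap and H1f0 had 100% of these reads on 1 model in both libraries. H2afj and Hist1h2bc had 1 such read off the main model. The test could not have found a difference in any of these genes. For H2afy the main annotated transcript, H2afy-202, made up 6 of 27 complete-model reads in replicate 2 and 2 of 20 in replicate 1.

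Downstream of Hist1h4m, an H4 gene, stood an unannotated spliced transcript with far more reads than the gene itself. Hist1h4m (chromosome 13, 21811746 to 21812147, plus strand) had 1 read in each library and ends in a standard stem-loop with no A run.
Hist1h4m: ctttctcaactaaaGGCCCTTTTCAGGGCC
This window is chr13:21812115-21812144 (plus strand). On the same strand, a model of 2 exons began 930 bases past the end of Hist1h4m in replicate 2 and 931 in replicate 1. It joined a first exon of 135 or 134 bases, across an intron of 5276 bases (21813212 to 21818487), to a last exon of 1630 or 1632 bases that ended at 21820117 in replicate 2 and 21820119 in replicate 1. It had 186 reads in replicate 2 and 161 in replicate 1, with the same intron in both. The authors placed it in their Intergenic gene class and gave its model the class Genomic.

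Other models of this region shared its borders. Acceptors 14 bases upstream and 11 bases downstream of the main one had 4 and 2 reads in replicate 2 and 6 and 3 in replicate 1. Unspliced models over the last exon and the intron bases before it had 12 and 20 reads, and unspliced models reaching from the last base of Hist1h4m to the start of the first exon had 3 and 7 (replicates 2 and 1). Together the region held 207 reads in replicate 2 and 197 in replicate 1, or 11.4% and 8.77% of all reads on unannotated intergenic loci. The locus ranked 2 among 697 such loci in replicate 2 and 1 among 926 in replicate 1. No model in either library joined it to Hist1h4m. Other unannotated models within 10000 bases, on either strand, whose nearest histone gene was replication-dependent had 9 reads in replicate 2 and 13 in replicate 1.

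**Figure D5:**
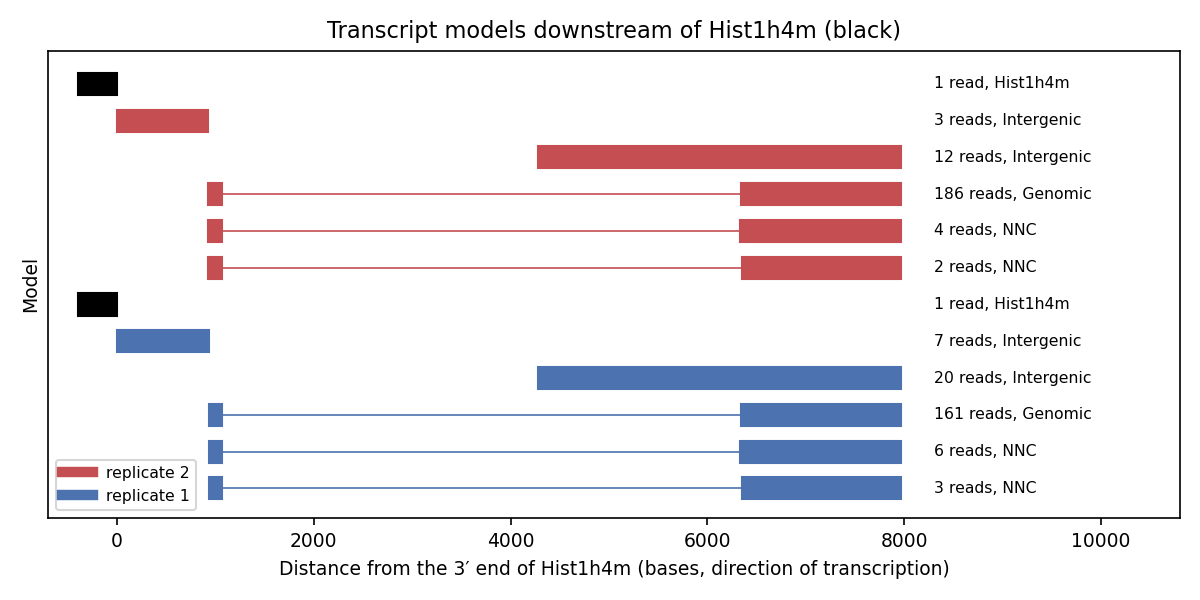
Transcript models downstream of Hist1h4m in each library, drawn to scale by distance in bases from the 3′ end of Hist1h4m (black); boxes are exons, lines are introns, and reads and the authors' class stand at the right. The model of 2 exons with the main acceptor has 186 reads in replicate 2 and 161 in replicate 1.

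Genes that make, process and deposit histones were read in both libraries. Of 19 genes of histone mRNA transcription and 3′ processing, 17 were read in both libraries, and the list summed to 867.6 ± 82.3 CPM. Slbp, which binds the stem-loop, had 103 reads in replicate 2 and 92 in replicate 1. The poly(A) polymerase gene Papola had 87 and 62 reads, the endonuclease gene Cpsf3 73 and 57, and the cap-binding gene Ncbp2 61 and 69 (replicates 2 and 1). Of the 15 tested, 0 were called and 2 had an unadjusted p under 0.05 by the exact binomial test, a share near the 13.9% of all genes tested.

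All 10 genes of replication-coupled deposition had reads in both libraries (1174 ± 193 CPM), and 2 of the 10 were called, both higher in replicate 2, where 1.39% of all genes tested were called in that direction. The histone chaperone gene Asf1b had 295 reads in replicate 2 and 241 in replicate 1 (log2 ratio 0.39, adjusted p 0.0471 by the exact binomial test). Rbbp4, a subunit of the CAF-1 chaperone, had 100 and 64 reads (log2 ratio 0.74, adjusted p 0.0366 by the exact binomial test). Both adjusted p lie near the limit of 0.05, and neither call was examined under the other scalings. Ssrp1, of the FACT chaperone, had 115 reads in replicate 2 and 104 in replicate 1, and the helicase subunit gene Mcm2 had 105 and 90. Of 18 S phase genes 0 were called and 3 had an unadjusted p under 0.05 by the same exact test, again near the share of all genes (2731 ± 320 CPM). Their highest members were the ribonucleotide reductase subunit gene Rrm2 with 823 reads in replicate 2 and 755 in replicate 1, the helicase subunit genes Mcm6 with 178 and 146 and Mcm7 with 156 and 123, and the cyclin gene Ccna2 with 167 and 143.

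Of 14 genes that deposit or exchange variant histones, 13 had reads in both libraries (1171 ± 9.99 CPM), and of the 12 tested 0 were called and 0 had an unadjusted p under 0.05 by the exact test. The nucleosome assembly genes Nap1l1 and Nap1l4 had 186 and 120 reads in replicate 2 and 184 and 132 in replicate 1. Ruvbl2 and Ruvbl1, helicases of the complexes that exchange H2A.Z, had 117 and 116 reads in replicate 2 and 128 and 122 in replicate 1. Hira, a chaperone of H3.3 named here because it was the 1 gene of the list without reads, had 0 reads in both libraries. Daxx and Atrx, of another H3.3 deposition pathway, had 21 and 53 reads in replicate 2 and 26 and 42 in replicate 1. All 6 genes listed here as regulators of the H2afy exon pair were read (948.0 ± 35.1 CPM), led by the helicase gene Ddx5 with 521 reads in replicate 2 and 504 in replicate 1. Mbnl2 had 104 and 71 reads, Rbfox2 33 and 47 and Mbnl1 27 and 37 (replicates 2 and 1). Of the 6 tested 0 were called and 3 had an unadjusted p under 0.05 by the exact test, against 13.9% of all genes tested. These 3 were Mbnl2 (log2 ratio 0.65), Qk and Ddx17. Qk had 11 reads in replicate 2 and 33 in replicate 1 (log2 ratio -1.445, adjusted p 0.0534 by the exact binomial test). Ddx17 had 7 and 22 (log2 ratio -1.49).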

How the data were processed

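Long-read RNA sequencing of C2C12 total RNA was deposited as 2 libraries. Per the file headers, the authors' tables give raw read counts per transcript model on mm10 against GENCODE M21, with no normalisation, and only models with at least 1 read. Their annotations give each model's exons. Unannotated models carry TALON as their source, while the aligner, its version and the filters applied were not stated in headers or labels (not given in the sources used here). Depth was 735077 and 791850 reads (replicates 2 and 1).

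Here, gene counts were summed over models and scaled to annotated-gene reads. Genes with at least 10 reads were compared between libraries by an exact binomial test, with log2 ratios offset by 0.5 reads. Shares have exact (Clopper-Pearson) 95% intervals from scipy 1.17.1. Unannotated models were matched by exact intron chain. Coding ends and sequences came from GENCODE M21. Alternatives used edgeR 4.0.16 (TMM) and DESeq2 1.42.0 size factors. Both tests were tried on simulated counts. Named were the 12 highest replication-dependent genes, all variant genes with reads, called genes and genes with at least 5 spliced reads. Of each supporting list, the 4 highest and the called ones were named. Hist1h2ac, Hist1h2ag, Hist1h2be, Hist1h2br, Hist1h2bf, Hist1h4m, Hira, Daxx, Atrx, Qk and Ddx17 were added after their values were seen. Members and lists were chosen with earlier results of these data known. No genome sequence was used.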

Additional observations from a re-analysis of the deposited data

How the results depend on the processing

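No paired analysis was possible because the series has 1 group. With 2 libraries, leaving 1 out says nothing of stability; 42 members had reads in replicate 2 and 43 in replicate 1, against 33 read in both. H2afv kept its call under all 5 alternatives (log2 ratio -0.54 to -0.64). With DESeq2 size factors or on complete models alone 2 histone genes were called, the addition being Hist1h2ap (adjusted p 0.0183 and 0.0315 by the exact binomial test, 0.0183 to 0.206 over the alternatives). Hist1h2ap held the same 240 and 322 reads on complete models (replicates 2 and 1), so its changed ratio there came from the library totals. The DESeq2 size factors were 1 in both libraries, so that alternative compared counts without scaling for depth. On complete models alone, scaled to complete-model reads, the replication-dependent sum was 1123 CPM and the variant sum 6380 CPM. The variant sum was 5865 CPM without Genomic models, scaled to the reads left, and 5579 CPM scaled to all reads. Smaller scaling totals raised the sums on complete models and without Genomic models, which do not stand for more histone reads. At a minimum of 5 reads in each library, 17 members remained in place of 33. The share of replication-dependent reads on extended models was 98.5% with a limit of 50 bases and 13.3% with 500 bases, against 15.2% at 150 bases, since the Hist1h2ao and Hist1h2ap models end between 50 and 150 bases past the coding end. The spliced share was 0.345% without Hist1h2bc. Without Hist1h2ao and Hist1h2ap, an alternative chosen after seeing the data, the spliced share was 26.2%, the extended share 72.5% and the replication-dependent share of histone reads 3.42%. Apart from leaving out a library, the remaining alternatives moved sums and shares by less than the spread between libraries. For counts of genes no such spread was computed. Under the remaining alternatives 1 histone gene was called and 0 differed in isoform use. On complete models alone or without Genomic models, 32 members were read in both libraries. Depth limits the H2afy shares (48 informative reads) and all replication-dependent genes with few reads.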
